A study of Mus musculus with 2 samples.

Results

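Interferon-stimulated genes were followed across the T cell and B cell gates of 1 WT and 1 DKO-severe mouse. The members were a fixed list of 50 genes, of which 49 were among the 32285 genes of both matrices. The missing one was Mx1. Membership rested on the list, with no threshold on a measured value, but the list was drawn up with earlier results of these data known. The list was split into 10 role groups, and 10 of its genes that are typical of a response to type I interferon (Isg15, Ifit1, Ifit2, Ifit3, Ifit3b, Ifit1bl1, Rsad2, Usp18, Oasl1 and Cmpk2) were used as a core set for calls on single cells.

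The cells were TCRβ+ lymphocytes pooled from spleen and peripheral lymph nodes at 14 weeks of age and profiled by droplet-based single-cell RNA-seq, which counts unique molecular identifiers (UMIs). The WT mouse carried Foxp3Cre with unmodified Tet2 and Tet3. The DKO-severe mouse carried the same Cre with floxed alleles of both Tet2 and Tet3, enzymes that oxidise 5-methylcytosine in DNA. Because Foxp3-Cre is made in cells that express Foxp3, mainly regulatory T cells, and the deletion is inherited by their descendants, the DKO-severe tissue holds cells with the deletion beside cells that never expressed the Cre, and the matrices do not mark which is which. The genotypes carried different hashtag antibodies in a common library. There was 1 mouse per genotype, so no difference between genotypes was tested, no p-value is given, and the 95% intervals below are exact and cover counting error only. Genotype and mouse cannot be told apart.

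Type I interferons bind the IFNAR1-IFNAR2 receptor, whose kinases JAK1 and TYK2 activate a transcription factor complex that includes IRF9 and binds the interferon-stimulated response element. Interferon gamma acts through its own receptor on a related set of genes. In lymphocytes the induced genes encode antiviral effectors, sensors of foreign nucleic acid, negative regulators of the response and transcription factors that amplify it.

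Many members lie next to relatives in the genome, which matters for how reads are assigned. In the GENCODE vM21 annotation of GRCm38, the 7 p200 family members (Ifi206, Ifi214, Ifi213, Ifi209, Ifi208, Ifi204 and Ifi203) lie within chr1:173468485-173942672, and the 5 Ifit genes lie within chr19:34550694-34650009. Reads from such copies can be split or dropped by the counting, so values of single p200, Ifit, Oas and Schlafen genes are uncertain to that extent. Ifi27l2a lies on the minus strand at chr12:103442167-103443680, Usp18 on the plus strand at chr6:121245906-121270917 and Slfn8 on the minus strand at chr11:83002158-83020810.

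RefSeq promoter windows (250 bases before to 50 bases after the transcription start, GRCm38.p6) were found for 40 of the 49 members. The response element was searched on both strands as GAAA repeated after any 2 bases, with overlapping matches counted. It occurred in a window of 23 of the 40 members (57.5%), against 1079 of 27025 genes with a window (3.99%). Among the p200 family it occurred in 5 of 6 genes, among interferon-induced GTPases in 4 of 5, and in neither of the transcription factors Irf7 and Irf9. These are matches of letters in a short window and say nothing of binding. The windows of 5 members described below are printed 5′ to 3′ on the strand of the gene, with the element, on either strand, in capitals. They are Isg15 at chr4:156200769-156201068 (minus strand), Ifit1 at chr19:34640639-34640938 (plus strand), Ifi208 at chr1:173673415-173673714 (plus strand), Ifi213 at chr1:173599223-173599522 (minus strand) and Oas1a at chr5:120907476-120907775 (minus strand).
Isg15: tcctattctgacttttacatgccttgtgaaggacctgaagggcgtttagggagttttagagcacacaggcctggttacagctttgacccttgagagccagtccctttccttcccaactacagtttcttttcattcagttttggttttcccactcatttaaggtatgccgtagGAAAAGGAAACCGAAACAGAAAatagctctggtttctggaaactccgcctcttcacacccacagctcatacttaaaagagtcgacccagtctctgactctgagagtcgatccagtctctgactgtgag
Ifit1: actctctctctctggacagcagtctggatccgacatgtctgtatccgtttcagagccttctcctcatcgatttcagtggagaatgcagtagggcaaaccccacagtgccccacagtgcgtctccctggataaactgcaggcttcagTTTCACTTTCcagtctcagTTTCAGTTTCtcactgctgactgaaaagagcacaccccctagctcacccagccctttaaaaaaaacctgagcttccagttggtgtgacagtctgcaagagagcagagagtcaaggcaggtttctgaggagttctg
Ifi208: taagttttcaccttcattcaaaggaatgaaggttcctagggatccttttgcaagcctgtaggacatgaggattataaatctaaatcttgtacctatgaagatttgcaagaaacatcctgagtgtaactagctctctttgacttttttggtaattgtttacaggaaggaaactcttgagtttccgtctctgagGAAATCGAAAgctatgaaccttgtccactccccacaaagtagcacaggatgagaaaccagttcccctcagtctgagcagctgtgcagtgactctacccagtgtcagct
Ifi213: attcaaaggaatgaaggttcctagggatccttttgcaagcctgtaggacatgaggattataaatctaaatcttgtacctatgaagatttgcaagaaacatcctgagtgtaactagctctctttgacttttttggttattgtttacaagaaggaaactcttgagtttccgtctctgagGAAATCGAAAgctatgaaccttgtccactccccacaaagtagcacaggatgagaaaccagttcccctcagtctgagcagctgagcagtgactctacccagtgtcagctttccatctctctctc
Oas1a: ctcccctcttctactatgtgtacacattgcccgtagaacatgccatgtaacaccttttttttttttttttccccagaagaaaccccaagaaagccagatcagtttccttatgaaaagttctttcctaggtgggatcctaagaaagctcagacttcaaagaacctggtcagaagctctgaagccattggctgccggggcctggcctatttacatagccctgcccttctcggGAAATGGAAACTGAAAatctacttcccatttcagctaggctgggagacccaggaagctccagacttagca
Isg15 held 3 overlapping matches that began at positions -78, -72 and -66 from the start. Ifit1 held 2 on the opposite strand and Oas1a 2 that overlapped. Ifi208 and Ifi213 each held 1, and their windows, shifted by 15 bases, were identical at 282 of 285 positions.

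After filtering, 6584 WT and 6360 DKO-severe cells remained, with medians of 5616 and 8066 UMIs per cell, and no barcodes were shared between the matrices. The Cd4 gate (Cd3 and Cd4 UMIs, no Cd8a or Cd8b1) held 1739 WT and 2738 DKO-severe cells, and the Cd8 gate 3052 and 1735. Cells of the Cd4 gate with a Foxp3 UMI numbered 64 and 331. The innate-like gate (a Zbtb16 UMI, no Foxp3 or Cd8) held 88 and 196, of which 20 and 87 were also in the Cd4 gate, and the B gate held 15 and 216. All 6 T cell markers were detected in every T cell gate. Granulocyte markers differed between genotypes in the same cells. In Cd4-gated cells they summed to 84.8 CPM (UMIs scaled to a common library total) for WT and 2999 CPM for DKO-severe, and monocyte or macrophage markers at 59.2 and 476 CPM, with all 6 genes of each list detected in both genotypes. Their part in the results was not tested. Cells with 3 or more UMIs of these 2 lists made up 3.28% of WT and 14.5% of DKO-severe Cd4-gated cells. Without those cells the Cd4 log2 ratios of 2 genes named below left their intervals, Ifi208 moving from -2.26 to -2.02 and Bst2 from -0.31 to -0.46.

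In the Cd4 gate the members together took a larger share of the transcriptome in DKO-severe cells, and a single gene accounted for the direction. The members summed to 0.291% of all UMIs in WT (interval 0.287 to 0.294%) and to 0.354% in DKO-severe (0.352 to 0.356%), a log2 ratio of 0.28 (0.26 to 0.30). Without Ifi27l2a the share was 0.225% in WT and 0.173% in DKO-severe, a log2 ratio of -0.38 (-0.40 to -0.35). Ifi27l2a, which encodes a small membrane protein strongly induced by type I interferon, supplied 22.6% of the member UMIs in WT and 51.0% in DKO-severe Cd4-gated cells. The second most abundant member, Ifi203, supplied 8.27% and 4.62%.

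The other gates differed from the Cd4 gate in how far this held. In the Cd8 gate the summed share was 0.245% in WT and 0.257% in DKO-severe, a log2 ratio of 0.07 (0.05 to 0.09), and it was 0.05 (0.03 to 0.07) without Ifi27l2a. The Foxp3-positive cells had the highest share, 0.312% in WT and 0.471% in DKO-severe, with a log2 ratio of 0.59 (0.52 to 0.67) that became -0.27 (-0.36 to -0.18) without Ifi27l2a. In innate-like cells the share went from 0.283% to 0.360%, and the log2 ratio of 0.35 (0.27 to 0.43) became 0.01 (-0.07 to 0.09) without that gene. The B gate, with 15 WT cells, had the lowest share, 0.173% in WT and 0.231% in DKO-severe, a log2 ratio of 0.41 (0.21 to 0.62). Monocyte or macrophage markers there summed to 2708 CPM for WT and 39.6 CPM for DKO-severe cells and plasma cell markers at 23844 and 4225 CPM, and their part in the B ratio was not tested. Only the Cd8 and B gates thus kept a ratio above 0, with an interval above 0, when Ifi27l2a was left out.

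Ifi27l2a had the most UMIs of any member in all 5 gates of both genotypes. It rose from 6738 UMIs (658 CPM) in WT to 50444 UMIs (1804 CPM) in DKO-severe Cd4-gated cells, a log2 ratio of 1.45 (1.42 to 1.49). Its level was 736 and 2734 CPM in Foxp3-positive cells, a log2 ratio of 1.89 (1.74 to 2.05). In innate-like cells it was 311 and 1071 CPM, a log2 ratio of 1.78 (1.56 to 2.01). Cd8-gated cells stood apart, with 323 and 362 CPM and a log2 ratio of 0.17 (0.11 to 0.22). B-gated cells had 358 and 662 CPM. The difference was thus largest in the gates defined by Cd4 or Zbtb16 and small in the Cd8 gate of the same mice. The Cd4 ratio was 1.46 without cells carrying 3 or more myeloid UMIs.

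The Ifi27l2a difference was spread over cells and did not come from a few. To compare single cells at equal depth, each was thinned to 3800 UMIs, which kept 5896 WT and 5884 DKO-severe cells and left out the shallower ones. The gates were set again on the thinned counts, so cells that lost their marker UMIs in thinning also left them. The Cd4 gate then held 1250 WT and 1929 DKO-severe cells, beside 1739 and 2738 before. Foxp3-positive cells numbered 26 and 93, beside 64 and 331. Per-cell values describe these smaller sets and not the whole gates. The median Cd4-gated cell carried 2 Ifi27l2a UMIs in WT and 4 in DKO-severe. Cells with none made up 24.8% and 11.04%. The highest 5% of cells held 25.4% of the gene's UMIs in WT and 24.2% in DKO-severe. In Foxp3-positive cells the median was 1 UMI in 26 WT cells and 10 UMIs in 93 DKO-severe cells, and in the Cd8 gate it was 1 in both genotypes. Its B gate cells with no UMI were 46.2% in WT and 34.4% in DKO-severe. For the other 48 members the median Cd4-gated cell carried 7 UMIs in WT and 5 in DKO-severe, and the median Cd8-gated cell 7 in both.

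**Figure D1:**
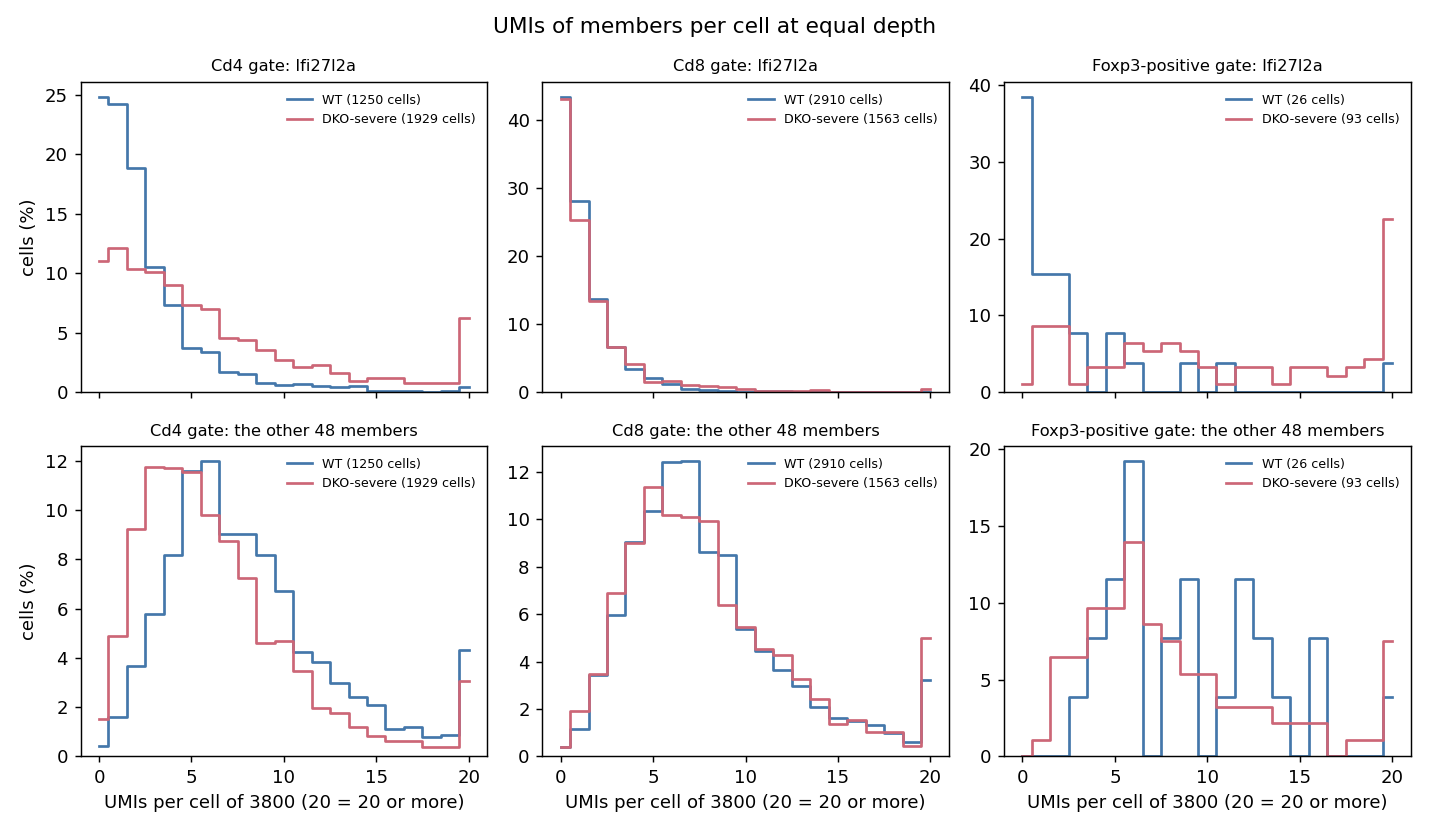
Distribution of UMIs per cell for Ifi27l2a (top) and for the other 48 members summed (bottom), after thinning each cell to 3800 UMIs. The x axis is the UMI number (the last step holds cells with 20 or more), the y axis the percent of cells, and lines are genotypes. In the Cd4 gate the DKO-severe line lies to the right of WT for Ifi27l2a (medians 4 and 2) and to the left for the other members (medians 5 and 7), while the lines of the Cd8 gate nearly coincide.

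Beyond Ifi27l2a, members of the list moved in both directions in Cd4-gated cells. A gene was read where it had 30 or more UMIs over both genotypes and a mean of 5 CPM or more, which 43 of 49 members met. The mean was taken over both genotypes, so a gene could meet it through its level in a single genotype. It was called higher or lower where the ratio was 2-fold or more and its interval lay on one side of 0. Of the 43 members, 5 were higher, against 11.6% of the 9899 genes read, so their share of 11.6% was that of the background. Lower members numbered 9 (20.9%), against 4.41% of all genes. By the interval alone 12 members lay above 0 (27.9%, background 42.4%) and 23 below 0 (53.5%, background 25%). The median log2 ratio of the members was -0.30, beside 0.11 for all genes read. With CPM taken over genes outside the immunoglobulin, haemoglobin, mitochondrial and ribosomal protein families the medians were -0.47 and -0.05, a shift of all genes in which the members' place below the rest was kept. On that scale 4 of 47 members were higher, against 11.1% of all genes, and 12 lower, against 6.08%. Trim30a, Parp14 and Dtx3l, at 0.15 or less above 0, would lie below it. The 9 lower genes were lower under every alternative setting except that Usp18 missed a minimum of 20 CPM and Igtp missed the call with a pseudocount. Of the 5 higher genes, Ifi27l2a was called under all 9 alternatives.

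**Figure D2:**
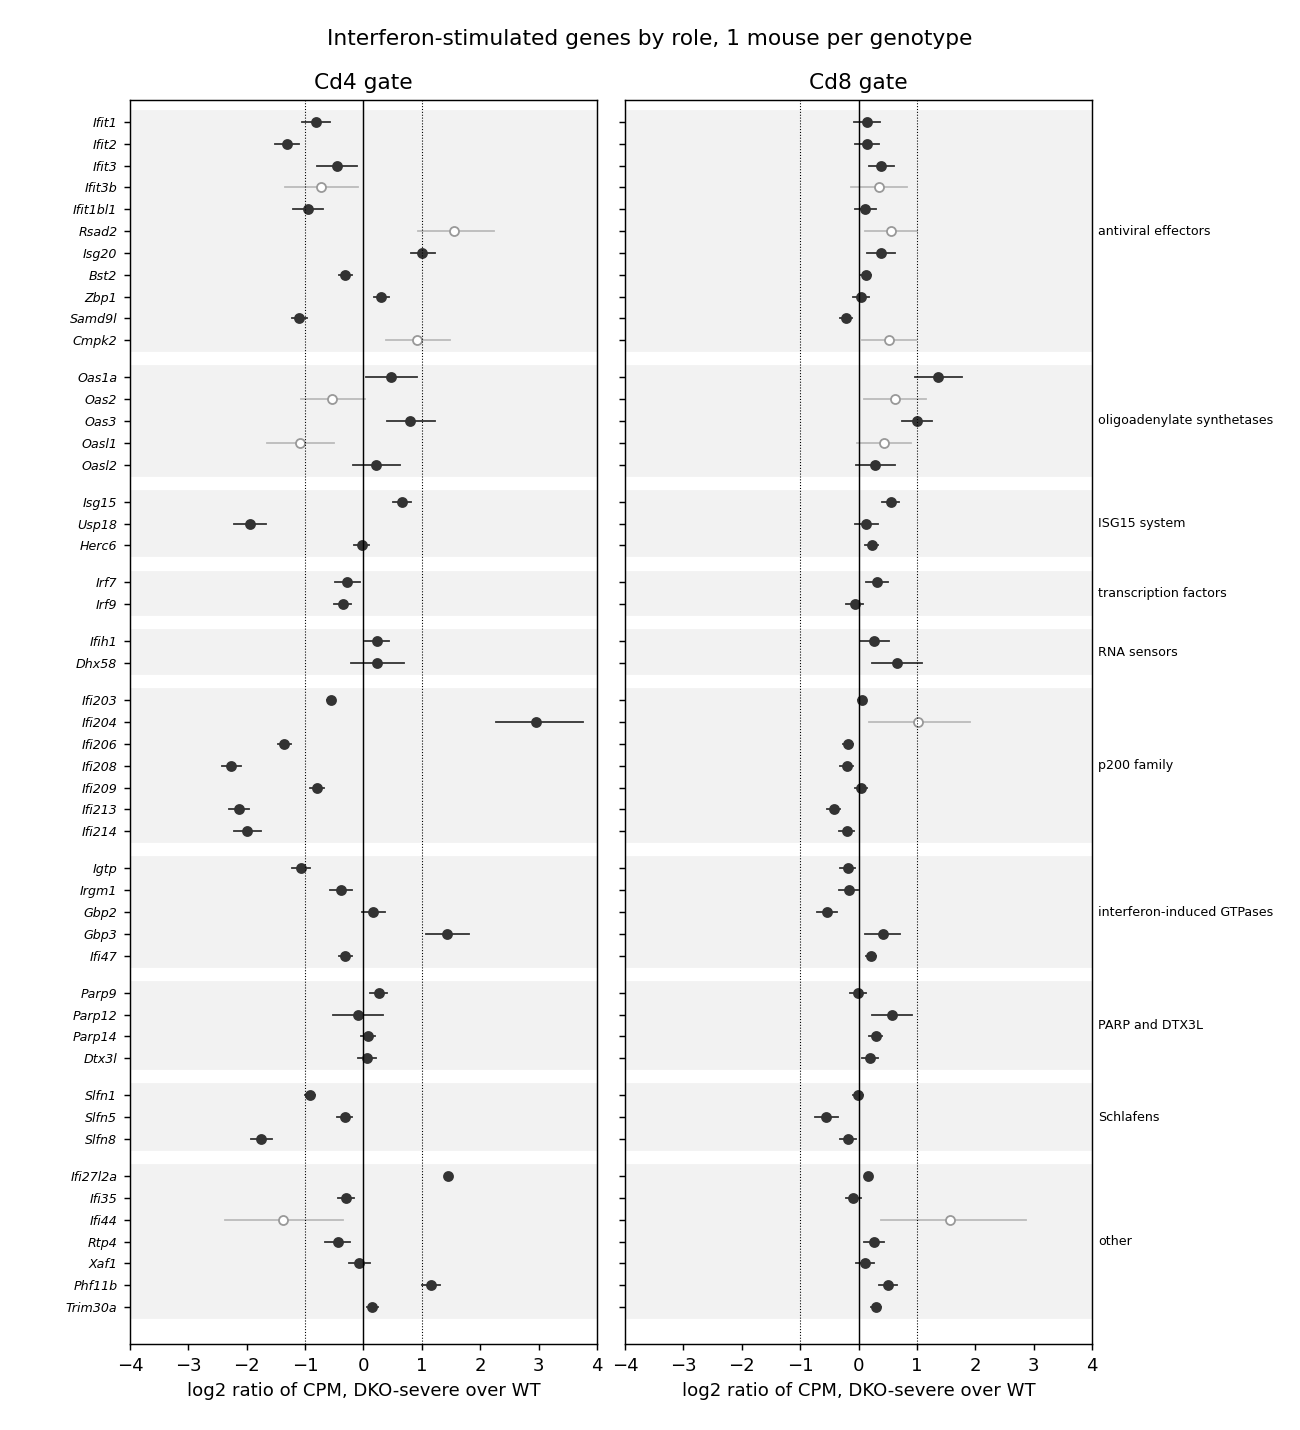
Log2 ratio of CPM, DKO-severe over WT, for each of the 49 members in the Cd4 gate (left) and the Cd8 gate (right), arranged by role. Points are ratios, horizontal lines exact 95% counting intervals (1 mouse per genotype), filled points members that met the minimum level, and dotted lines mark a 2-fold ratio. In the Cd4 gate points run from -2.26 (Ifi208) to 2.96 (Ifi204), while filled points of the Cd8 gate lie between -0.55 and 1.36.

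The p200 family, which includes HIN-domain proteins that bind DNA in the nucleus or cytosol, held the lowest ratios in Cd4-gated cells. Its 7 genes summed to 633 CPM for WT and 317 CPM for DKO-severe cells, and 4 of them were 2-fold or more lower (background 4.41%). Ifi208 went from 801 UMIs (78.2 CPM) to 456 UMIs (16.3 CPM), a log2 ratio of -2.26 (-2.43 to -2.09), and Ifi213 from 67.2 to 15.3 CPM, a log2 ratio of -2.13 (-2.31 to -1.95). Ifi214 went from 36.5 to 9.19 CPM, at -1.99, and Ifi206 from 110 to 43.2 CPM, at -1.35. Ifi203, the most abundant of the family, had 240 and 164 CPM, at -0.56, and Ifi209 had 98.8 and 56.8 CPM, at -0.80. Ifi204 went the other way, from 17 UMIs (1.66 CPM) to 362 UMIs (12.9 CPM), a log2 ratio of 2.96 (2.26 to 3.76). It met the minimum level only through DKO-severe cells. When cells with 3 or more myeloid UMIs were left out Ifi204 stood at 0.819 and 5.73 CPM. Its log2 ratio was then 2.81 (1.78 to 4.05), but its mean CPM was under the minimum level, so it was not called. Isg20 then stood at 0.97, so 3 members were still called higher.

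Within the ISG15 system the ligand and its protease diverged. Isg15, a ubiquitin-like modifier, had 413 UMIs (40.3 CPM) in WT and 1775 UMIs (63.5 CPM) in DKO-severe Cd4-gated cells, a log2 ratio of 0.65 (0.50 to 0.81). Usp18, which removes ISG15 from its targets and blocks signalling at IFNAR2, had 268 UMIs (26.2 CPM) and 191 UMIs (6.83 CPM), a log2 ratio of -1.94 (-2.21 to -1.67). Herc6, the mouse ligase for ISG15, had 62.5 and 61.1 CPM, and its interval held 0. A Usp18 UMI was seen in 8.64% of thinned WT Cd4-gated cells and in 2.02% of DKO-severe ones, at 3800 UMIs each, and the latter was near the 2.05% of the DKO-severe B gate.

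Antiviral effectors were split. Ifit1, which binds foreign RNA, had 23.0 and 13.0 CPM in Cd4-gated WT and DKO-severe cells, a log2 ratio of -0.82 (-1.06 to -0.58). Ifit3, its partner, had 10.8 and 7.90 CPM, at -0.46 (-0.79 to -0.11). Ifit2 was 2-fold or more lower, from 39.3 to 15.8 CPM, as was Samd9l, a restriction factor, from 88.8 to 41.5 CPM. Bst2, the tethering factor tetherin, had 97.7 and 78.8 CPM, at -0.31 (-0.42 to -0.20). Isg20, an exonuclease, was higher, from 22.9 to 46.1 CPM, at 1.01 (0.81 to 1.22), and Zbp1, a sensor of Z-form nucleic acid, had 55.6 and 68.8 CPM. Ifit1bl1, a relative of Ifit1, had 21.6 and 11.2 CPM, at -0.95. Rsad2, Cmpk2 and Ifit3b were under the minimum level.

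In the remaining groups the Cd4 values were as follows. All 3 Schlafens had intervals below 0 (background 25%). Slfn1 had 174 and 92.1 CPM, Slfn5 67.3 and 53.7 CPM, and Slfn8 went from 55.3 to 16.4 CPM, at -1.75 (-1.93 to -1.57). Among the interferon-induced GTPases, which act on vacuoles that hold pathogens, Igtp went from 62.3 to 29.6 CPM, at -1.07, and Gbp3 from 7.03 to 19.0 CPM, at 1.43 (1.08 to 1.81), while Ifi47, Irgm1 and Gbp2 stood at -0.31, -0.39 and 0.17. Oas3 and Oas1a, which make the activator of RNase L, had intervals above 0, at 0.80 and 0.47, while the interval of Oasl2 held 0 and Oas2 and Oasl1 were under the minimum level. The transcription factors Irf7, an amplifier of the response, and Irf9 stood at 24.3 and 20.1 CPM and at 56.6 and 44.2 CPM, log2 ratios of -0.28 (-0.50 to -0.06) and -0.36. Of the RNA sensors, Ifih1 (MDA5) was at 0.23 with an interval above 0, and Dhx58 (LGP2) held 0. Parp9, Parp12, Parp14 and Dtx3l, a group with roles in ADP-ribosylation, lay between -0.10 and 0.26. In the last group Phf11b went from 39.8 to 88.7 CPM, at 1.16 (1.01 to 1.31), Ifi35, Rtp4 and Xaf1 had ratios of -0.30, -0.44 and -0.07, and Trim30a had one of 0.15. Ifi44 was under the minimum level.

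Cd8-gated cells of the same mice showed small differences. Of 42 members read, 1 was 2-fold or more higher (background 2.58%) and 0 were lower (background 1.42%). By the interval alone 19 members lay above 0 (45.2%, background 22.9%) and 10 below 0 (23.8%, background 26.4%), and the median log2 ratio was 0.14 beside -0.02 for all genes. The called gene was Oas1a, with 80 UMIs (3.81 CPM) for WT and 162 UMIs (9.80 CPM) for DKO-severe cells, at 1.36 (0.97 to 1.77). Its WT level was under 5 CPM, so it met the minimum level only through DKO-severe cells. It was not called at a minimum of 100 UMIs and 20 CPM or with a pseudocount of 5 CPM. Next were Oas3, with 10.1 and 20.03 CPM at 0.99 (0.74 to 1.25), Dhx58 at 0.66, Parp12 at 0.57 and Isg15, with 33.5 and 49.2 CPM at 0.55 (0.41 to 0.70). Ifit3 stood at 0.39 (0.17 to 0.60), Irf7 at 0.32 (0.12 to 0.51), Bst2 at 0.12 (0.03 to 0.21) and Ifit1 at 0.14 (-0.08 to 0.37).

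At the low end of the Cd8 gate were Slfn5 at -0.55 (-0.75 to -0.35), Gbp2 at -0.53 (-0.71 to -0.37), Ifi213 at -0.42 (-0.53 to -0.31), Samd9l at -0.21 and Ifi214 at -0.20. The 5 genes lowest in the Cd4 gate thus had Cd8 ratios between -0.42 and 0.14. Among Cd8-gated cells Ifi208 had 82.4 (WT) and 71.7 CPM (DKO-severe), Usp18 had 22.7 and 24.9 CPM, and Slfn8 had 53.8 and 47.6 CPM. Within WT, Ifi208 differed between the gates by a log2 ratio of 0.07 (-0.05 to 0.20), Cd8 over Cd4, and within DKO-severe by 2.14 (1.98 to 2.30). For Usp18 the corresponding values were -0.21 (-0.43 to 0.01) and 1.87 (1.62 to 2.12).

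The Cd4 gates held different cells, so the comparison was repeated in cells with a naive-like profile (chosen by genes of naive T cells such as Ccr7 and Lef1 and by the absence of Cd44, at equal depth). These were 762 of 1250 WT and 225 of 1929 DKO-severe Cd4-gated cells. Their granulocyte markers were alike, at 81.8 and 74.3 CPM, while monocyte or macrophage markers stood at 14.4 and 177 CPM. Of 42 members read, 2 were higher (Ifi27l2a and Gbp3, background 6.99%) and 3 lower (Ifi213, Ifi214 and Ifi208, background 2.65%), and the median log2 ratio was -0.01 beside 0.08 for all genes. Ifi27l2a stood at 579 and 1214 CPM, a log2 ratio of 1.07 (0.99 to 1.15). Ifi213 stood at 78.4 and 37.7 CPM, at -1.06 (-1.45 to -0.68), Ifi208 at 86.5 and 42.7 CPM, at -1.02 (-1.39 to -0.66), and Usp18 at 27.3 and 15.0 CPM, at -0.87 (-1.52 to -0.25). The p200 family as a whole had a log2 ratio of -0.59 (-0.70 to -0.48) and the core genes one of -0.06 (-0.25 to 0.14). The lower p200 level and the higher Ifi27l2a level were thus present in naive-like cells, at a smaller size than in the whole gate. The naive-like sets were not alike in make-up. A Cntn5 UMI was found in 27 of the WT and 38 of the DKO-severe naive-like cells. The follicular helper genes named below, 2 or more of them, were found in 2 and 22. The part of these cells in the naive-like values was not tested.

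Within the DKO-severe mouse the other Cd4-gated cells were then set against its own naive-like cells, in sets without shared cells. Cells with a Cntn5 UMI (537 cells, Cntn5 being a neuronal adhesion gene found in many DKO-severe cells) had 13 of 45 members 2-fold or more lower, against 3.59% of all genes. Cells with 2 or more of the follicular helper genes Pdcd1, Cxcr5, Il21, Tox2 and Ascl2 (247 cells) had 17 of 37 lower, against 3.83% of all genes. Ifi208 stood at 42.7 CPM in the naive-like, 6.61 CPM in the Cntn5-positive, 7.06 CPM in the Tfh-gene and 21.1 CPM in the remaining 920 cells. Slfn8 stood at 36.0, 4.59, 4.99 and 22.0 CPM in the same order. Ifi27l2a ran the other way, at 1214, 1663, 1794 and 1997 CPM, and Isg15 stood at 43.8, 63.0, 58.6 and 64.5 CPM. Ifi204 went from 7.21 CPM in naive-like to 22.4 CPM in Cntn5-positive cells, and Isg20 from 26.6 CPM to 61.1 CPM in Tfh-gene cells. Granulocyte markers stood at 74.3 CPM in the naive-like cells and, over all cells of each kind, at 1277 CPM in the 575 Cntn5-positive and 71.6 CPM in the 499 Tfh-gene cells, and monocyte or macrophage markers at 177, 292 and 110 CPM. Their part in the Ifi204 value was not tested.

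WT Cd4-gated cells outside the naive-like set offered few cells of these kinds, 17 with Cntn5 and 23 with the follicular helper genes. In the latter Ifi208 had 4 UMIs and Ifi213 1 UMI, out of 153789 UMIs of all genes. The 762 naive-like cells had 384 and 348 UMIs of them (86.5 and 78.4 CPM), out of 4437566. Because these totals differ, the raw counts do not give the size of the difference. Ifi208 stood at 63.6 CPM in the 448 remaining WT cells. Set against the WT naive-like cells, the 23 Tfh-gene cells had 8 of 37 members 2-fold or more lower, against 2.41% of all genes. The 17 Cntn5-positive cells had 1 of 38 lower, against 0.528% of all genes. Lower members in Tfh-gene cells were thus seen in WT as well. The WT p200 sum was 688 CPM in naive-like, 742 CPM in Cntn5-positive and 390 CPM in Tfh-gene cells, and the DKO-severe sum 457, 235 and 214 CPM. In Cntn5-positive cells the p200 sum was thus above the naive-like level in WT and below it in DKO-severe, with 17 cells on the WT side.

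**Figure D3:**
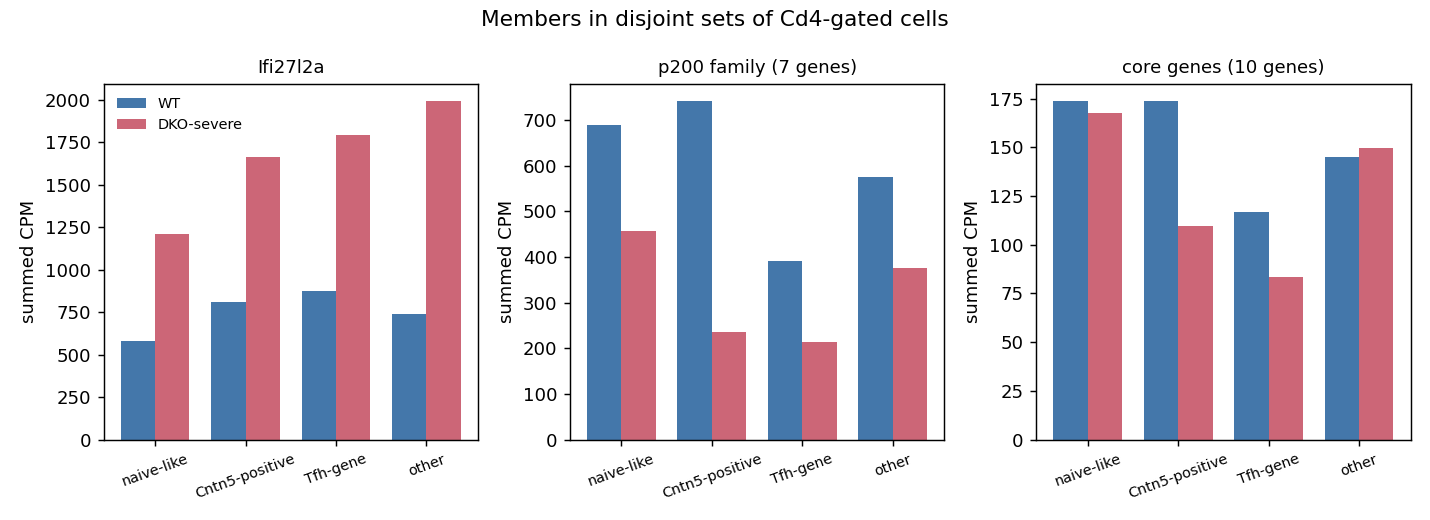
Summed CPM of Ifi27l2a, of the 7 p200 genes and of the 10 core genes in 4 disjoint sets of Cd4-gated cells. The x axis gives the set, the y axis CPM from 0, and bars are genotypes, without error bars since there was 1 mouse each. In DKO-severe the p200 sum is highest in naive-like cells (457 CPM) and lowest in Tfh-gene cells (214 CPM), and Ifi27l2a is above WT in all 4 sets.

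Among the smaller gates, Foxp3-positive cells resembled the Cd4 gate of which they are part. Of 43 members read, 3 were higher (background 8.17%) and 9 lower (background 5.19%). Higher were Ifi27l2a, Isg20, from 17.4 to 57.6 CPM, and Phf11b, from 45.8 to 105 CPM. Usp18 was lowest, from 29 UMIs (63.2 CPM) to 23 UMIs (4.87 CPM), a log2 ratio of -3.70 (-4.55 to -2.86), followed by Ifit1bl1 at -2.41 and Ifi208 at -1.96. Isg15 stood at 54.5 and 82.8 CPM, Ifit1 at 32.7 and 15.0 CPM, Ifit3 at 10.9 and 8.48 CPM, Irf7 at 32.7 and 24.8 CPM, and Bst2 at 100 and 96.4 CPM, where the last 3 intervals held 0. With 64 WT cells these values rest on few molecules and may rest on few cells. Of 26 thinned WT cells 2 had a Usp18 UMI, and the highest WT cell held 48.6% of the core UMIs of this gate. Granulocyte markers stood at 76.2 and 3818 CPM in the same cells (5 and 6 of the 6 genes detected). Their part in the values was not tested.

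In innate-like cells 4 of 43 members were higher (background 7.91%), namely Ifi27l2a, Isg20, Gbp3 and Ifi204, and Ifi214 was lower (background 2.33%). Isg15 stood at 59.0 and 101 CPM there, with an interval above 0, while those of Ifit1 (39.9 and 38.7 CPM), Ifit3 (13.9 and 19.8 CPM), Irf7 (36.5 and 32.4 CPM) and Bst2 (101 and 121 CPM) held 0. Granulocyte markers were at 69.5 and 3916 CPM, and without cells with 3 or more myeloid UMIs the log2 ratio of the summed share was 0.19. In the B gate 26 members could be read, of which Ifi209 was higher (background 6.26%) and Dtx3l lower (background 2.96%). Isg15 had 3 and 28 UMIs in B cells (24.99 and 18.8 CPM), Bst2 117 and 79.8 CPM, Irf7 2 and 24 UMIs, and Ifit1 and Ifit3 had none in the 15 WT cells and 29 and 5 UMIs in DKO-severe.

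Whether few cells or all carried the core genes was read from the number of core genes detected per thinned cell. Most cells carried none or 1. Of Cd4-gated cells, 762, 371, 78, 26, 9 and 4 WT cells carried 0, 1, 2, 3, 4 and 5 or more, and 1371, 449, 73, 20, 9 and 7 DKO-severe cells did. A cut at 3 or more therefore divides a falling slope, with 78 and 73 cells just under it and 26 and 20 at it. Above the cut were 39 of 1250 cells from WT (3.12%, interval 2.23 to 4.24%) and, from DKO-severe, 36 of 1929 (1.87%, 1.31 to 2.57%), with intervals that overlapped. With the gate on 2 or more UMIs the shares were 1.81% and 1.89%, and WT no longer lay above DKO-severe. Without thinning they were 5.58% and 5.59%, at median depths of 5261 and 8249 UMIs. Among B-gated cells, 0 of 13 from WT (a count of 0 here allows up to 23.1%) and 1 of 195 from DKO-severe (0.513%) were above it.

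In the Cd8 gate the DKO-severe share was the larger, again with overlapping intervals. Of 2910 cells from WT, 79 carried 3 or more (2.71%, 2.16 to 3.37%), and from DKO-severe 65 of 1563 did (4.16%, 3.22 to 5.27%). There 12 WT and 27 DKO-severe cells carried 5 or more. Without thinning the shares were 5.96% and 10.9%. Naive-like Cd8 cells had 2.66% and 4.84%, and Cd8 cells with granzyme UMIs 5.04% and 6.75%, with intervals that overlapped in each. Naive-like Cd4 cells had 4.07% (2.78 to 5.72%) in WT and 3.56% (1.55 to 6.88%) in DKO-severe, and no difference was detectable at this depth. In DKO-severe, Cntn5-positive cells, here with no other set taken out, had 6 of 575 (1.04%, 0.384 to 2.26%) and Tfh-gene cells 3 of 499 (0.601%, 0.124 to 1.75%).

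**Figure D4:**
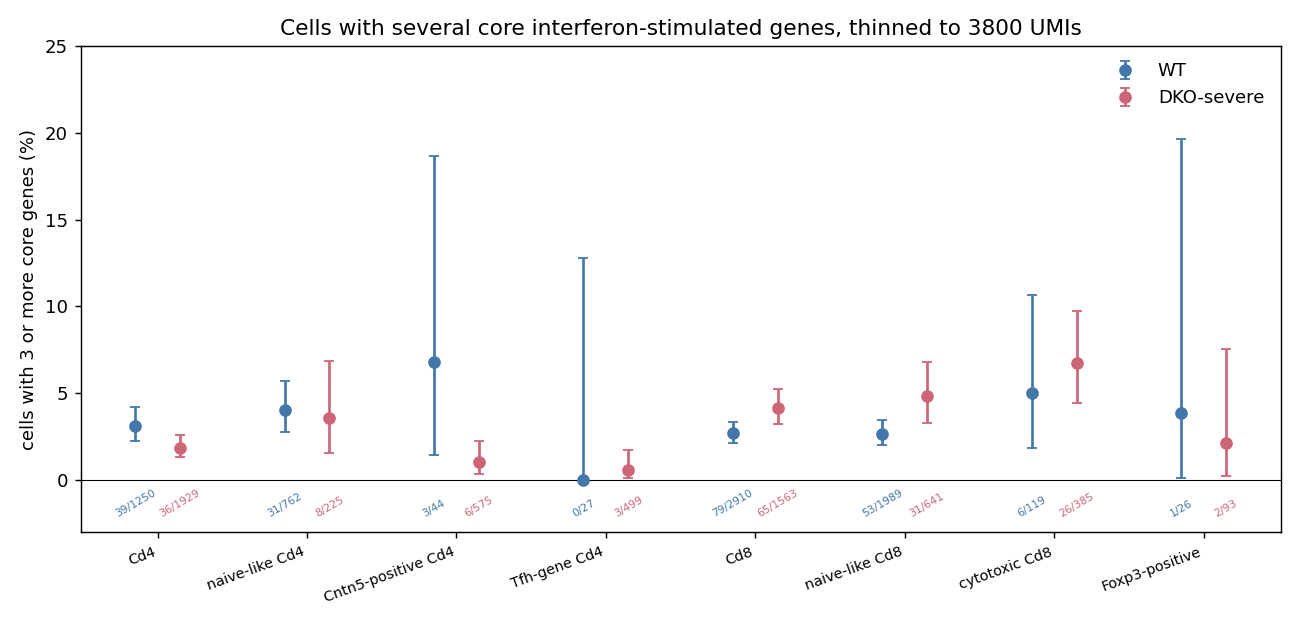
Percent of cells with UMIs of 3 or more core genes after thinning to 3800 UMIs, by gate or subset (x axis) and genotype (colour), with exact binomial 95% intervals and the number of cells above the cut under each point. WT lies above DKO-severe in the Cd4 gate (3.12% and 1.87%) (1.81% and 1.89% with the gate on 2 or more UMIs) and below it in the Cd8 gate (2.71% and 4.16%), with overlapping intervals, and the WT intervals of the Cntn5-positive, Tfh-gene and Foxp3-positive sets are wide because they hold 44, 27 and 26 cells.

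The highest cells held a larger share of core UMIs in DKO-severe than in WT in the Cd4 and Cd8 gates. The highest 5% of Cd4-gated cells held 34.9% of them in WT and 46.8% in DKO-severe, and in the Cd8 gate 37.9% and 48.9%. Smaller T cell gates had the reverse order. The highest 5% held 56.8% (26 WT cells) and 34.9% (93 DKO-severe cells) of core UMIs in Foxp3-positive cells. The number of top cells was rounded up, so for 26 cells it is a larger fraction than for 93. The single highest WT cell held 48.6%, so these shares are not a like comparison. In innate-like cells they held 53.8% (74 WT cells) and 47.1% (137 DKO-severe cells). The variance of the per-cell sum over its mean was 2.21 and 5.12 in the Cd4 gate and 2.82 and 6.18 in the Cd8 gate, where a value of 1 would be that of counting alone. The largest number of core UMIs in a cell was 18 and 42 in the Cd4 gate. Of Cd4-gated cells, 39.04% from WT and 28.9% from DKO-severe had at least 1 core gene, and of Cd8-gated cells 35.9% and 34.9%. For all members together the highest 5% held 15.5% and 18.7% in the Cd4 gate, and the variance over the mean was 4.79 and 9.38. The mean per cell was 10.9 and 13.3 UMIs for all members, beside 0.629 and 0.530 for the core genes. A share held by the top cells rises as the mean falls, so these shares cannot tell which list was spread more evenly. The same limit holds between genotypes in the Cd4 gate, where the core mean was lower in DKO-severe. In the Cd8 gate the core mean was 0.594 in WT and 0.761 in DKO-severe.

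Cells above the cut carried more of nearly every other member, genes on which the cut did not rest. These cells were compared with cells that had no core gene, in the same gate and genotype. In WT Cd4-gated cells 30 of 32 members outside the core that could be read had intervals above 0 (background 4.71%), with a median log2 ratio of 1.47, and in DKO-severe 38 of 38 (background 8.85%) with 2.27. The Cd8 gate gave 36 of 37 in WT (background 4.96%) and 37 of 37 in DKO-severe (background 7.26%), with medians of 1.64 and 2.14. None lay below 0, and the median of all genes was between -0.06 and 0.07. The minimum level was a mean CPM over both sets of cells, so a gene could meet it through cells above the cut alone. In DKO-severe Cd4-gated cells, Oasl2 (3.88 and 103 CPM), Oas2 (1.57 and 28.7 CPM) and Parp12 (4.48 and 17.2 CPM) were among those that did. The counts include such genes. Before thinning, median depths of the cells above the cut and with no core gene were 5632 and 5369 UMIs in WT and 7487 and 8040 UMIs in DKO-severe Cd4-gated cells. Myeloid markers, above the cut and with no core gene, stood at 97.5 and 103 CPM for WT and 1126 and 3164 CPM for DKO-severe Cd4-gated cells. For Cd8-gated cells the pairs were 644 and 123 CPM for WT and 118 and 575 CPM in DKO-severe, so in WT they were higher above the cut, and their part in the rise there was not tested.

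The size of this rise varied by gene. Oasl2, an oligoadenylate synthetase-like protein, went from 3.88 CPM in DKO-severe Cd4-gated cells without core genes to 103 CPM above the cut, a log2 ratio of 4.74 (4.08 to 5.38), and Rtp4, a chaperone of membrane receptors, from 12.4 to 190 CPM, at 3.94 (3.50 to 4.36). Irf7 went from 14.7 to 80.4 CPM, at 2.45 (1.83 to 3.03), and in WT from 14.7 to 80.6 CPM, also at 2.45. Ifi208 and Ifi213, low in DKO-severe Cd4-gated cells as a whole, stood at 109 and 129 CPM in the DKO-severe cells above the cut, beside 178 and 237 CPM in the WT cells above it. Ifi27l2a changed less than most, from 1651 to 3180 CPM in DKO-severe, at 0.95 (0.86 to 1.03), and from 610 to 1314 CPM in WT, at 1.11 (0.93 to 1.28). DKO-severe cells without any core gene therefore had more Ifi27l2a than WT cells above the cut. With cells above the cut left out, the Cd4 log2 ratio, DKO-severe over WT, was 1.5005 (1.46 to 1.55) for Ifi27l2a and -1.01 (-1.07 to -0.96) for the p200 family, and the Cd8 ratio was 0.32 (0.27 to 0.38) and -0.16 (-0.20 to -0.12). All members without Ifi27l2a, a sum that holds the core genes on which the cut was made, then stood at -0.36 in the Cd4 gate. In the Cd8 gate this sum stood at -0.03 (-0.05 to -0.01). These ratios rest on gates set on thinned counts, so they are not comparable with the whole-gate ratios above. With cells above the cut still in, the Cd8 sum was 0.09 in naive-like and 0.07 in the other thinned cells. Ifi27l2a stood at 0.15 and 0.42 in those cells, so its 0.32 shows no effect of leaving cells out.

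Interferon genes and signalling genes that are not members were read from a list of 31. No UMI of Ifnb1, Ifna2 or Ifna4 was found in the Cd4 or Cd8 gate. For Cd4-gated cells 26 of the 31 met the minimum level, 2 were higher (background 11.6%) and 2 lower (background 4.41%). Ifng, the type II interferon, went from 7.33 to 19.9 CPM, at 1.44 (1.09 to 1.81), and Irf5, a transcription factor abundant in B and myeloid cells, from 3.22 to 13.7 CPM. Irf5 met the minimum level only through DKO-severe cells. Ifngr2, the second chain of the interferon gamma receptor, went from 52.2 to 17.3 CPM, at -1.59 (-1.78 to -1.41), and Ddx58, the RNA sensor RIG-I, from 65.1 to 30.8 CPM, at -1.08. In the Cd8 gate 24 met it, of which 1 was higher (background 2.58%) and 1 lower (background 1.42%). Higher was Ifng, from 2.91 to 23.4 CPM, at 3.01 (2.61 to 3.42), and lower was Ifngr2, from 29.2 to 10.9 CPM. In that gate Ifng met the minimum level only through DKO-severe cells. The receptor genes Ifnar1 and Ifnar2 stood at -0.29 and -0.18 in the Cd4 gate and at -0.14 and 0.01 in the Cd8 gate.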

How the data were processed

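The authors aligned and counted reads with Cell Ranger against mm10, per the labels and methods, and deposited 2 matrices of raw UMI counts per gene and cell, 1 per genotype, each with counts of 2 hashtags. Their downstream tool was Seurat. Cells were kept with 500 or more genes, at most 10% mitochondrial UMIs and more counts of their own hashtag (3 WT barcodes had more of the other). The highest 6% of Scrublet scores (scanpy 1.11.5) in each matrix were removed as likely doublets. UMIs were summed per gate and genotype. Log2 ratios of CPM carry exact conditional binomial intervals at 95%, shares Clopper-Pearson intervals. A gene under 3 UMIs was counted as 3, and no ratio is given where both sides were at or under it. The code was tested on simulated data with known folds. With 1 mouse per genotype no test was possible. Values were named for Isg15, Ifit1, Ifit3, Irf7, Bst2 and Ifi27l2a in every gate, and for the 5 highest and 5 lowest ratios among members with 100 or more UMIs in the Cd4 and Cd8 gates. One further gene of this rule and one gene of the naive-like gate are not reported here. Other genes named were chosen after their values were seen. The members, role groups and gates were chosen with earlier results of these data known. Promoter windows came from RefSeq (GRCm38.p6) and gene positions from GENCODE vM21. Alternatives changed the doublet, gate, myeloid, mitochondrial, level, scaling and thinning choices.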

Additional observations from a re-analysis of the deposited data

How the results depend on the processing

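No paired analysis was possible because each genotype was 1 mouse. Log2 ratios of the summed share moved outside their counting interval or changed sign as follows. For the Cd4 gate (0.28) the ratio was 0.26 when gating on 2 or more UMIs, 0.12 on the scale without immunoglobulin, haemoglobin, mitochondrial and ribosomal protein genes, -0.38 without Ifi27l2a, -0.37 with the core genes alone and -0.40 without Ifi27l2a and without cells with 3 or more myeloid UMIs, the last chosen after seeing the data. In the Cd8 gate (0.07) it was 0.12 with equal weight per cell and 0.30 with the core genes alone. In Foxp3-positive cells (0.59) those settings gave, from the gate on 2 UMIs on, 0.75, 0.48, -0.27, -0.75 and -0.28. In innate-like cells (0.35) it was 0.57 with the gate on 2 UMIs, 0.19 without myeloid-UMI cells, 0.0100 without Ifi27l2a, 0.24 with the core genes and -0.10 with both Ifi27l2a and myeloid-UMI cells out. In B cells (0.41) it was 0.65 with the gate on 2 UMIs, 0.66 without myeloid-UMI cells, 1.28 with the core genes and 0.21 on the reduced scale.

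The 5 higher members of the Cd4 gate became 3 of 42 without myeloid-UMI cells (10.5% of all genes), 3 of 32 at 100 UMIs and 20 CPM (8.03%) and 3 of 43 with a pseudocount of 5 CPM (8.49%), while the count of lower members stayed within 1.5 times of 9 under all 9 alternatives. The single higher member of the Cd8 gate became 2 of 42 without doublet removal (2.98% of all genes), with the gate on 2 UMIs (2.36%) or at 5% mitochondrial UMIs (2.54%), 3 of 49 with a minimum of 3 UMIs (5.91%), and 0 at 100 UMIs and 20 CPM (1.71%) or with the pseudocount (1.59%). Shares of Cd4-gated cells above the cut were 9.36% (WT) and 5.65% (DKO-severe) at 2 or more core genes, 1.04% and 0.829% at 4 or more and 5.58% and 5.59% without thinning, and 1.81% and 1.89% with the gate on 2 UMIs. In the Cd8 gate they were 8.76% and 11.0045%, 1.13% and 2.30%, and 5.96% and 10.9%. The top 1% of cells held 12.7% and 24.0% of core UMIs in the Cd4 gate and 16.3% and 23.0% in the Cd8 gate, and without thinning the top 5% held 39.4% in WT Cd4-gated and 45.3% in DKO-severe Cd8-gated cells. The cause of these changes was not tested beyond what each setting itself leaves out. No ratio of a gene named by the rule changed sign under any of 8 alternatives, and 25 of 256 values lay outside the main interval.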
